A study of Mus musculus with 9 samples.

Results

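The Schlafen family was described in T-cell lymphomas of genotype G3 Atm-/- TERT-ER. Atm is the kinase at the head of the response to broken DNA, and TERT-ER joins the catalytic subunit of telomerase to the oestrogen receptor. All 9 tumours share this genotype. They were grown in SCID mice, which have no mature B or T cells of their own but keep myeloid and NK cells. The 5 ALT tumours (ALT 1 to ALT 5) came from recipients kept on vehicle, maintain telomeres by alternative lengthening, a recombination process, and were profiled at passage 4. The 3 telomerase tumours (telomerase 1 to telomerase 3) came from recipients kept on 4-OHT, the ligand that switches TERT-ER on, and were also at passage 4. The parental tumour, 1 array with no replicate and no stated passage, was labelled as using telomerase. Drug and mode of telomere maintenance cannot be told apart in this design. The labels do not say if each tumour of a group grew in its own lineage of animals, and p-values measure only the spread between the samples, which may be technical.

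The members are all probe sets of the array annotation whose gene symbol begins with Slfn, 15 of 45101 probe sets, which name 10 of the 19324 annotated genes. They comprise 11 probe sets of 7 Schlafen genes (Slfn1, Slfn2, Slfn3, Slfn4, Slfn5, Slfn8 and Slfn9), 1 that names both Slfn4 and Slfn3, and 3 others. Those 3 read Slfn10-ps, Slfn5os, a non-coding transcript opposite Slfn5, and Slfnl1, a Schlafen-like gene on chromosome 4. The symbol of Slfn10-ps marks a pseudogene, while RefSeq lists its type as misc_RNA. The probe sets were chosen by name, but the family was taken up because Slfn4 was among the genes with the largest difference between ALT and telomerase tumours. The differences of the members between these groups are therefore given as descriptions, with no p-value. For Slfn14, the remaining gene of the cluster, no expression value was analysed here, and it enters only the promoter counts.

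Schlafen genes take their name from the German word for sleep, since overexpression of the first members slowed the growth of mouse thymocytes. Type I interferon induces many of them, and several of the proteins bind or cut transfer RNA. Mouse members fall into a short group (Slfn1 and Slfn2), an intermediate group (Slfn3 and Slfn4) and a long group that also carries a helicase-like domain (Slfn5, Slfn8, Slfn9 and Slfn14).

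In RefSeq order on chromosome 11 the genes run Slfn5os, Slfn5, Slfn9, Slfn8, Slfn10-ps, Slfn2, Slfn1, Slfn4, Slfn3 and Slfn14. The promoter windows of 5 members are shown because Slfn4 and Slfn3, which adjoin each other, and Slfn8 and Slfn9, which do too, differed within each pair between the tumour groups, and because 1 Slfn5 probe set was lower in ALT tumours. Each window runs 5′ to 3′ from 250 bases before to 50 bases after the gene's start and comes from RefSeq, build GRCm38.p6. They lie at chr11:83174936-83175235 (Slfn4, plus strand), chr11:83191080-83191379 (Slfn3, plus strand), chr11:83020761-83021060 (Slfn8, minus strand, the first of 2 windows), chr11:82991781-82992080 (Slfn9, minus strand) and chr11:82951852-82952151 (Slfn5, plus strand). Capitals mark matches on either strand to the interferon regulatory factor core AANNGAAA, to the longer interferon response core that contains it (GAAA and GAAA with 2 bases between), or to the ETS factor site CAGGAAGT.
Slfn4: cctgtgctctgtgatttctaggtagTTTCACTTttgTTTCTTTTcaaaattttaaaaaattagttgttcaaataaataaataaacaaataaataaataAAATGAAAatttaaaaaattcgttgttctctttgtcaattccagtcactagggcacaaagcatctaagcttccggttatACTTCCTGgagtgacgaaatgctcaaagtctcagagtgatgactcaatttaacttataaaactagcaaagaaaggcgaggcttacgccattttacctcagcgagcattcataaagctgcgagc
Slfn3: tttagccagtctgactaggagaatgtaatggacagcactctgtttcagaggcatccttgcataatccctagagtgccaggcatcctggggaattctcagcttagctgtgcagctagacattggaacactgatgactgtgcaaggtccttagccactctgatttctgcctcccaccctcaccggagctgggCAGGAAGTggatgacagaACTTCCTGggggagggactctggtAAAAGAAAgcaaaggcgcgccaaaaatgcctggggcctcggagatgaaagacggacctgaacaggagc
Slfn8: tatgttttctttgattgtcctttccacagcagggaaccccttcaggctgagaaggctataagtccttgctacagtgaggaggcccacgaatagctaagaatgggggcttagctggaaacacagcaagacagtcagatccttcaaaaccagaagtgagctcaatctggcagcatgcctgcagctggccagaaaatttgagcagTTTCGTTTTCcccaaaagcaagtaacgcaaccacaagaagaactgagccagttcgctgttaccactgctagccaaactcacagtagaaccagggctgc
Slfn9: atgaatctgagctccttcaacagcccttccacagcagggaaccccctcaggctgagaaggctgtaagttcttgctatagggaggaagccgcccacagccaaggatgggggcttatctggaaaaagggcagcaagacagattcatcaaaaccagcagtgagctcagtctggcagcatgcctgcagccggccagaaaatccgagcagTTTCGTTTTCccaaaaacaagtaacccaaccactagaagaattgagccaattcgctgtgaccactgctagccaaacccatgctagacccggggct
Slfn5: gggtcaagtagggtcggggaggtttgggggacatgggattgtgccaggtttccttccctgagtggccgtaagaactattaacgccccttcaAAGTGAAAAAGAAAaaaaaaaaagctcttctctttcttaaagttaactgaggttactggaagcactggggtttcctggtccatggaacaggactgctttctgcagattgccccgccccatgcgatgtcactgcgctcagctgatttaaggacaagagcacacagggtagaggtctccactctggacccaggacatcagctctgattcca
The ETS letters occurred in the windows of 4 of the 8 genes of the cluster with a window (Slfn1, Slfn2, Slfn3 and Slfn4, all short or intermediate members), against 3.33% of 32851 promoter windows of the same length. The longer interferon core occurred in 3 of the 8 (Slfn5, Slfn8 and Slfn9, all long members), against 3.44% of all windows. The shorter interferon core, which every match to the longer one includes, occurred in 7 of the 8, with 3 matches in Slfn4, against 23.9% of all windows. The STAT letters TTCNNNGAA were in 0 of the 8 windows, against 8.3% of all. The motifs were picked after the windows had been read, so these are descriptions of letters. The windows of Slfn9 and Slfn8 were 80.5% identical over their alignment, and the other 27 pairs lay between 41.6% and 49.4%. Slfn4 and Slfn1 shared a run of 15 bases that holds the ETS letters. Slfn4 had 7 CpG dinucleotides in its window, the median over all windows.

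Of the 15 probe sets, 3 were higher in every ALT tumour than in every telomerase tumour and 2 were lower in every one. Over all 45037 non-control probe sets the shares without overlap were 6.96% higher and 10.3% lower, 17.2% in all. At an adjusted p of 0.05 in the limma fit across all probe sets, 2 members were higher and 2 lower, where 3.6% and 6.11% of all probe sets were (9.71% in all). Nothing is read from these member counts, since the family was chosen on this contrast. The mean signal of 11 members lay above the fortieth percentile of all probe sets, 25.3, and that of 4 lay below it (both Slfn1 probe sets, 1 of Slfn5 and Slfn5os). A probe set such as Slfn4 passed this filter through the ALT tumours alone. Over the 15 members the log2 change, ALT minus telomerase, ran from −1.19 to 5.24 with a median of −0.02, and the median of all probe sets was 0.0.

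**Figure D1:**
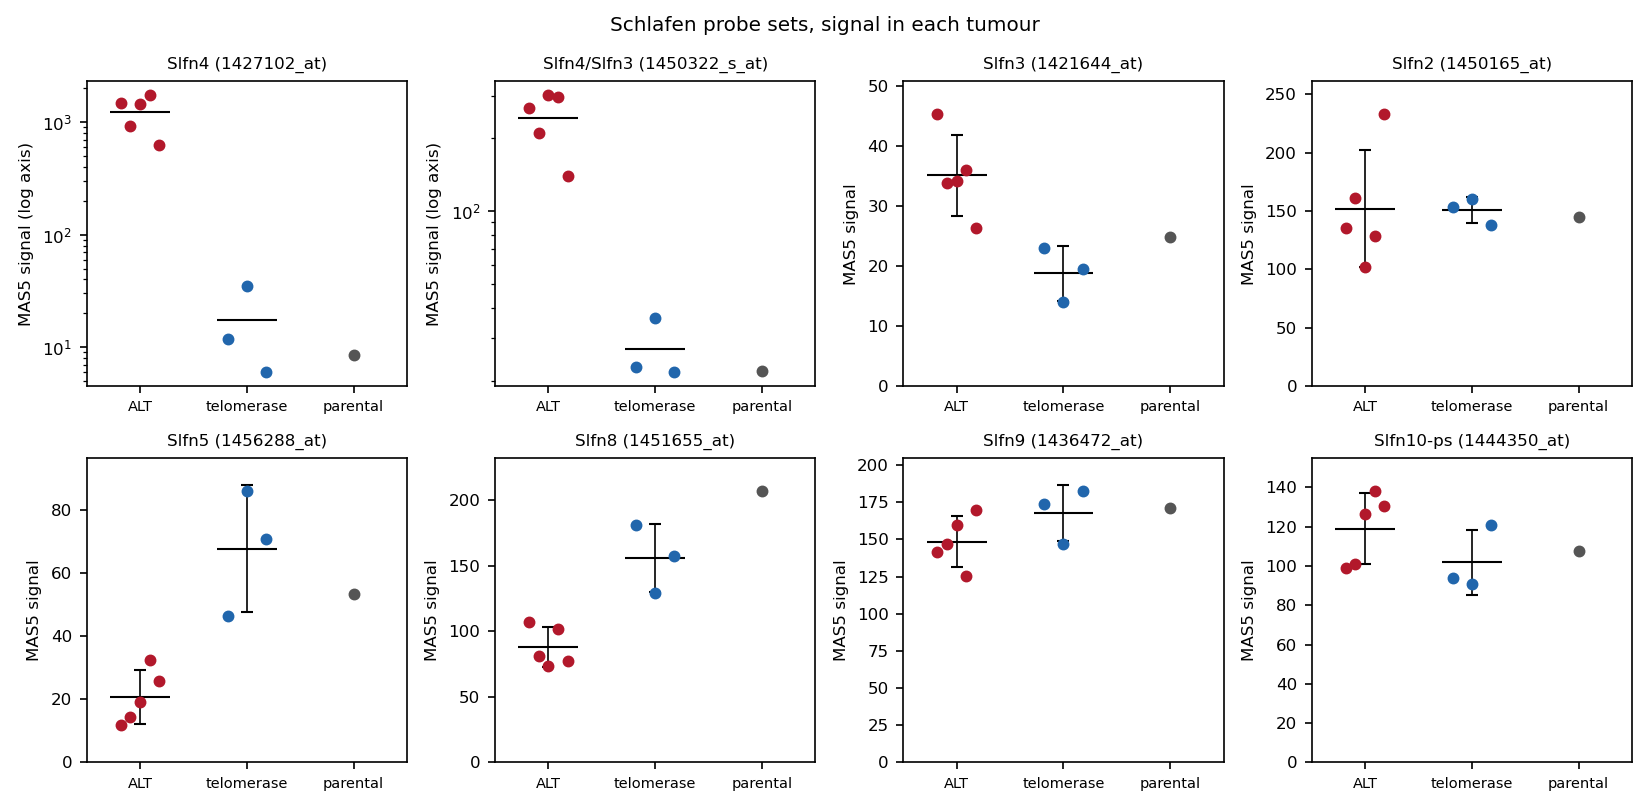
MAS5 signal of 8 Schlafen probe sets in each tumour (points), with ALT on the left, then telomerase and parental; horizontal lines are group means and bars the SD, with log axes and no SD bars for Slfn4 and the set shared with Slfn3. Slfn4 lay between 622 and 1736 in ALT tumours and between 6.0 and 34.6 in telomerase tumours, whereas Slfn8 and the plotted Slfn5 set were lower in ALT tumours.

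Slfn4, an intermediate member known in mice as an interferon-induced gene of macrophages and of suppressive myeloid cells in the stomach, had signals of 1479, 931, 1459, 1736 and 622 in ALT 1 to ALT 5. In telomerase 1 to telomerase 3 its signals were 11.8, 34.6 and 6.0, and the parental tumour had 8.54. All 5 ALT tumours were high, and all 4 tumours with telomerase were low; the lowest ALT value was far above the highest telomerase value. The ALT tumours averaged 1245 ± 455 (SD, n = 5) and the telomerase tumours 17.5 ± 15.1 (SD, n = 3), a log2 change of 5.24 with an SE of 0.335. The telomerase signals lay about or below the pseudocount of 16 added before taking logs, so the size depends on it: the change was 6.31 with a pseudocount of 1 and 3.94 with 64. The table has no detection calls, so it is unknown whether the low signals differ from background. Tumours are mixtures, and more cells with a transcript and more transcript per cell cannot be told apart in bulk RNA.

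The probe set annotated to both Slfn4 and Slfn3 had signals of 266, 209, 301, 296 and 140 in ALT 1 to ALT 5. In telomerase 1 to telomerase 3 it had 22.7, 36.4 and 21.7, and in the parental tumour 21.8. It separated the groups as Slfn4 did, with the same 2 ALT tumours, ALT 5 and ALT 2, lowest, and its log2 change was 2.56 (SE 0.231). The single-gene probe set of Slfn3, a member studied in T-cell activation and gut epithelium, had 45.4, 33.8, 34.2, 36.0 and 26.4 in ALT 1 to ALT 5. Its signals were 23.0, 13.9 and 19.5 in telomerase 1 to telomerase 3 and 24.9 in the parental tumour. The groups did not overlap here either, by a margin of a few signal units, with a log2 change of 0.55 (SE 0.168). Slfn3 and Slfn4 are close paralogues, and whether the Slfn3 probe set also takes up Slfn4 transcript was not tested.

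Both probe sets of Slfn1, the short member first tied to thymocyte growth arrest, had means below the filter. One lay between 2.35 and 9.89 in ALT tumours and between 2.52 and 4.72 in telomerase tumours, and the other between 5.63 and 14.6 in ALT tumours and between 7.23 and 11.6 in telomerase tumours. The groups overlapped in both, with log2 changes of 0.16 (SE 0.153) and −0.02 (SE 0.156). Slfn2, the short member needed for T-cell quiescence in mice, where its protein shields transfer RNA from cleavage, had 136, 161, 102, 128 and 233 in ALT 1 to ALT 5. In telomerase 1 to telomerase 3 it had 153, 160 and 138, and the parental tumour had 145. The telomerase and parental values all fell inside the range of the ALT tumours, whose highest and lowest were ALT 5 and ALT 3. The log2 change of Slfn2 was −0.03 (SE 0.206), and it ran from −0.19 without ALT 5 to 0.08 without ALT 3. Its sign differed between tumours with pancreatic transcripts (0.29) and those without them (−0.41), a split described below with the cell markers.

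Among the long members, Slfn8 had 107, 81.2, 73.6, 102 and 77.5 in ALT 1 to ALT 5. Its signals were 181, 129 and 157 in telomerase 1 to telomerase 3, and the parental tumour had 207, the highest of the 9 arrays. Every ALT tumour was below every tumour with telomerase, with a mean of 88.3 ± 15.3 (SD, n = 5) for ALT and 156 ± 26.2 (SD, n = 3) for telomerase tumours. The log2 change was −0.72 (SE 0.159). Slfn9, the long member beside it, had 141, 147, 160, 125 and 169 in ALT 1 to ALT 5 by its first probe set, against 174, 147 and 183 in telomerase 1 to telomerase 3 and 171 in the parental tumour. These groups overlapped, with a log2 change of −0.16 (SE 0.131). Its second probe set pointed the other way, by 0.15 (SE 0.155), with 23.5 to 33.3 in ALT tumours, 21.5 to 30.8 in telomerase tumours and 36.7 in the parental tumour. How far the probes of Slfn8 and Slfn9 tell these paralogues apart was not tested.

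The 3 probe sets of Slfn5, a long member of the nucleus that restrains interferon-driven transcription in human cells, disagreed in size. The first had 11.9, 14.4, 19.2, 32.6 and 25.6 in ALT 1 to ALT 5. In telomerase 1 to telomerase 3 it had 46.2, 86.0 and 70.8, and in the parental tumour 53.3. All ALT values were below all others in this probe set, which gave a log2 change of −1.19 (SE 0.225), −1.7 with a pseudocount of 1 and −0.63 with 64. In the second the groups overlapped, with 6.01 to 34.6 in ALT tumours, 19.8 to 40.5 in telomerase tumours and 41.2 in the parental tumour (log2 change −0.38, SE 0.268). The third, below the filter, had 2.8 to 23.3 in ALT tumours and 13.0 to 21.1 in telomerase tumours (log2 change −0.16, SE 0.229). Slfn5os, also below the filter, had 1.0 to 17.2 in ALT tumours and 3.7 to 17.0 in telomerase tumours.

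Slfn10-ps, between Slfn8 and Slfn2, had 98.8 to 138 in ALT tumours, 90.8 to 121 in telomerase tumours and 108 in the parental tumour, with a log2 change of 0.19 (SE 0.153). Slfnl1, away from the cluster, had 38.7 to 56.2 in ALT tumours and 28.4 to 51.4 in telomerase tumours, with a log2 change of 0.27 (SE 0.177). Both overlapped between the groups. The change of Slfn10-ps was 0.45 among tumours without pancreatic transcripts and −0.13 among those with them, and that of Slfnl1 was 0.52 and −0.12.

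**Figure D2:**
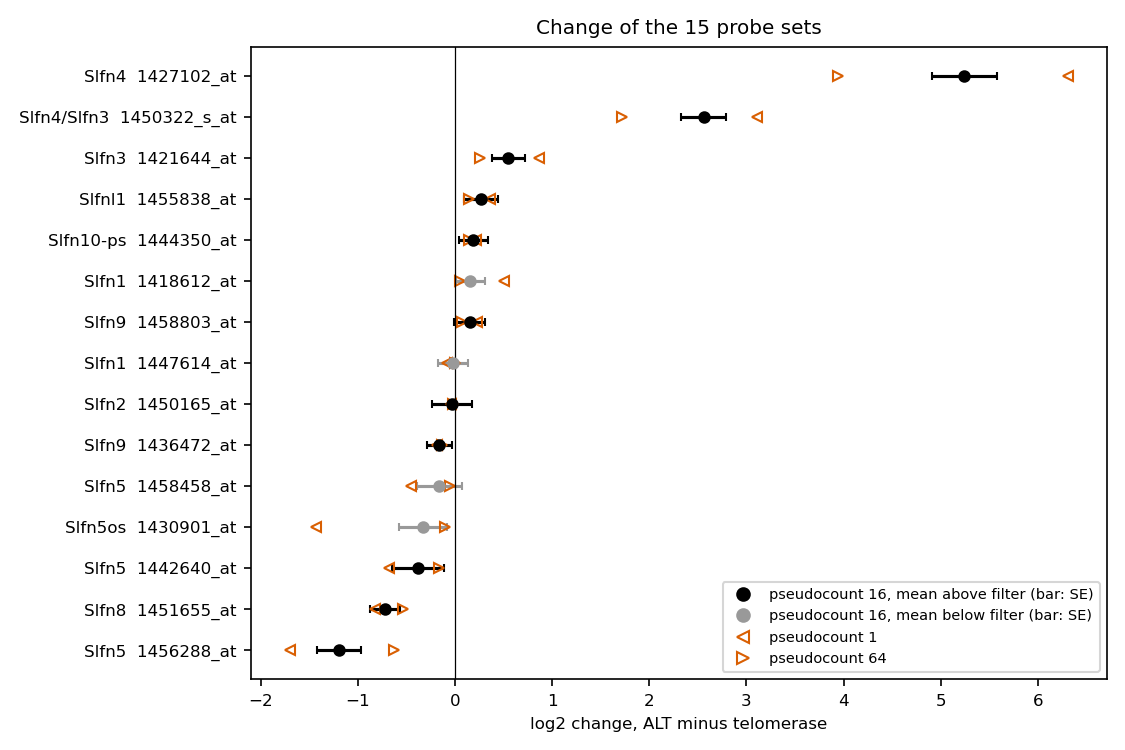
Log2 change of each of the 15 Slfn probe sets, ALT minus telomerase (points, bars are SE), with triangles for pseudocounts of 1 and 64; grey points have a mean below the filter. Slfn4 at 5.24 and the set shared with Slfn3 at 2.56 stand to the right, Slfn8 at −0.72 and 1 Slfn5 set at −1.19 to the left.

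Tumours also hold host cells, and Slfn4 is a myeloid gene in mice, so marker lists were set beside it. The summed signal of 20 macrophage and monocyte markers lay between 7196 and 10789 in ALT tumours, between 7425 and 10311 in telomerase tumours and at 8591 in the parental tumour. Csf1r, the receptor that macrophages need, had 360 to 519 in ALT tumours and 401 to 557 in telomerase tumours, and Marco was below 16 in every array. Of 18 markers of this list tested by limma across 12368 genes, Cd14, a receptor for bacterial lipid, rose (log2 change 0.83, adjusted p = 0.0139) and Ccr2, the receptor of inflammatory monocytes, fell (−1.57, adjusted p = 0.00711). Of all tested genes 7.48% rose and 10.1% fell, 17.5% in all. Leaving out telomerase 1 or telomerase 2 ended the Cd14 call (adjusted p = 0.0722 and 0.0518). The 13 neutrophil markers summed to 472 to 739 in ALT tumours and 436 to 780 in telomerase tumours, with Elane and Cxcr2 below 16 throughout. Of 6 tested, 0 passed in limma and 2 had an unadjusted p under 0.05. The share of all tested genes at that unadjusted level was not taken. Nothing is therefore read from such counts, here or for the lists below. The macrophage marker sum and the Slfn4 signal were 7196 and 1479 in ALT 1, 7921 and 931 in ALT 2, and 10095 and 1459 in ALT 3. In ALT 4 they were 8727 and 1736, and in ALT 5 10789 and 622. They were 9510 and 11.8 in telomerase 1, 7425 and 34.6 in telomerase 2, 10311 and 6.0 in telomerase 3, and 8591 and 8.54 in the parental tumour. Such a sum weighs bright genes most and does not single out cells that carry Slfn4. Which cells carry Slfn4 was not tested.

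The 16 T-cell markers summed to 42990 to 51558 in ALT tumours, 52901 to 55880 in telomerase tumours and 57108 in the parental tumour, so the groups did not overlap. Bright genes weigh most in this sum, such as Cd3g (mean 5001 in ALT and 8827 in telomerase tumours) and Cd3d (7305 and 9524). The median log2 change of the list was 0.01. Of these 16 genes 3 rose (18.8%) and 5 fell (31.2%), where 7.48% and 10.1% of all tested genes did. Cd3g, a chain of the T-cell receptor complex, fell by 0.82 (adjusted p = 0.000788) and the coreceptor gene Cd8b1 rose by 0.96 (adjusted p = 0.00372). Markers of dendritic cells summed to 2112 to 3095 in ALT tumours and 1806 to 4286 in telomerase tumours, with Xcr1 below 16 throughout, and those of NK cells to 815 to 1466 in ALT tumours and 1062 to 1289 in telomerase tumours, with Gzmb below 16 throughout. B-cell markers summed to 645 to 844 in ALT tumours and 636 to 757 in telomerase tumours, and endothelial markers to 506 to 659 in ALT tumours and 518 to 808 in telomerase tumours. The stromal list includes Thy1, which is also on the T-cell list; its 9 other genes summed to 4797 to 8685 in ALT tumours and 5579 to 7595 in telomerase tumours. Among them the collagen gene Col3a1 ran from 408 to 2288 in ALT tumours and from 628 to 2037 in telomerase tumours. Across these 5 lists 0 genes passed in limma, with 2 at an unadjusted p under 0.05.

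Pancreatic acinar transcripts were present in ALT 1, ALT 2, ALT 5 and telomerase 3, where 13 markers summed to at least 90545, and summed to at most 999 in the other 5 arrays. Skeletal muscle markers summed to 10269 in telomerase 1 and 15565 in the parental tumour and to at most 703 elsewhere. Of 13 acinar and 14 muscle markers 0 passed in limma, with 0 and 6 at an unadjusted p under 0.05. Slfn4 was 1479, 931 and 622 in the ALT tumours with acinar transcripts and 1459 and 1736 in those without. Its log2 change was 5.46 among arrays that carry them (3 ALT and 1 telomerase) and 5.42 among arrays that do not (2 and 2). For Slfn8 these values were −0.74 and −0.72, for the first Slfn5 probe set −1.4 and −0.95, and for Slfn3 0.51 and 0.58, so each kept its direction. Slfn8 and this Slfn5 set no longer passed the threshold among arrays without acinar transcripts. No calls are given for the arrays with them, which hold 1 telomerase tumour, so the loss cannot be tied to either subset.

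**Figure D3:**
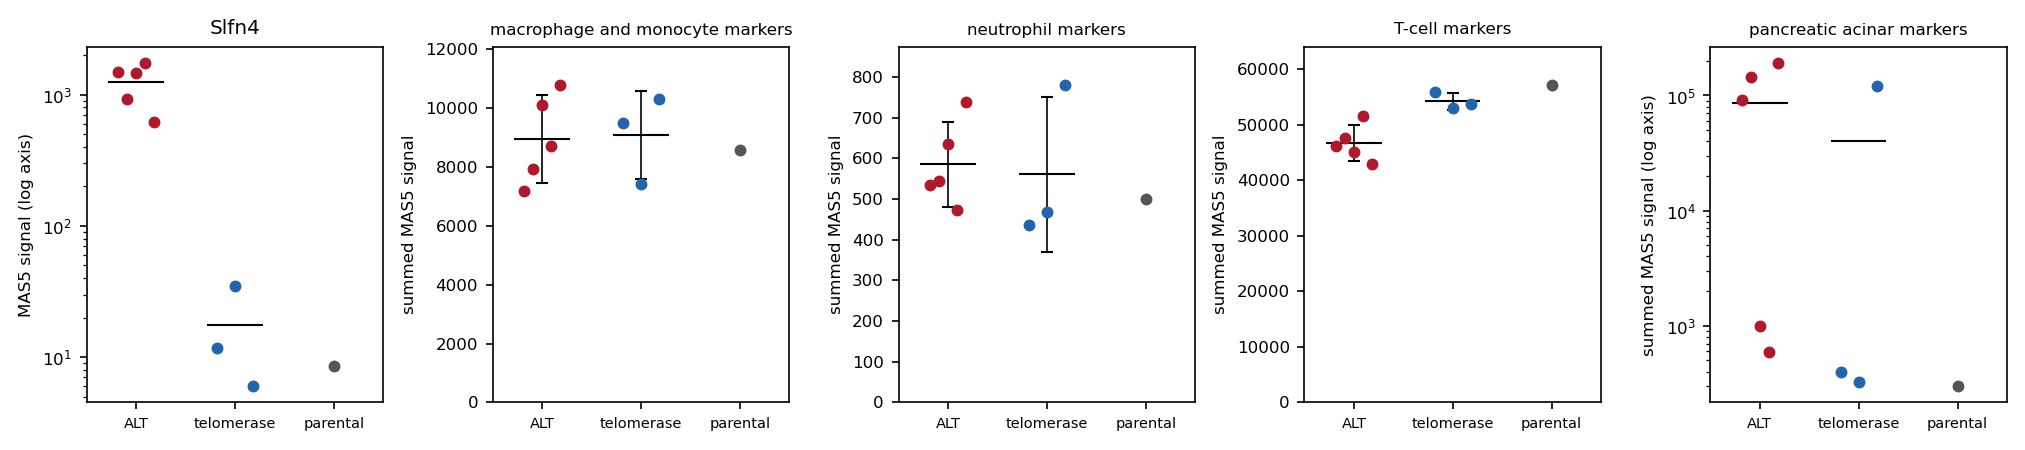
Slfn4 signal and the summed signal of 4 marker lists in each tumour (points; lines are group means, bars SD on the linear axes), ALT left of telomerase and parental. Macrophage sums overlapped between the groups (7196 to 10789 in ALT and 7425 to 10311 in telomerase tumours), T-cell sums did not, and acinar sums split each group.

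Genes beside the cluster, which the family rule did not use, were tested to see whether the Slfn4 difference extended along the chromosome. Of the 20 nearest tested genes, 10 on each side, 1 rose and 4 fell, where 7.48% and 10.1% of all tested genes did. The nearest tested gene before Slfn5 was Nle1, needed for ribosome assembly, and it differed by 0.21 on the log2 scale (adjusted p = 0.31). After Slfn14 the nearest was Ap2b1, an adaptor of endocytosis, which differed by 0.06 (adjusted p = 0.78). AI662270, the 1 tested gene inside the cluster that is not a Schlafen gene, had −0.13 (adjusted p = 0.652). Along chromosome 11 as a whole 59 of 1049 tested genes rose and 97 fell.

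The largest of the neighbours' changes were in chemokine genes before the cluster. Ccl8, which attracts monocytes, had 73.3, 292, 137, 408 and 204 in ALT 1 to ALT 5, against 3418, 4866 and 2218 in telomerase 1 to telomerase 3 (log2 change −4.0, SE 0.455, adjusted p = 0.000441). Ccl12, a monocyte chemokine next to it, had 17.7 to 53.6 in ALT tumours and 175 to 595 in telomerase tumours (log2 change −2.9, adjusted p = 0.000938). Wfdc17, a secreted protein of macrophages that lies on the other side, had 153 to 396 in ALT tumours and 609 to 1219 in telomerase tumours (−1.53, adjusted p = 0.0079). The group difference of these 3 genes was opposite to that of Slfn4. The order within the telomerase group was not: telomerase 2 was highest and telomerase 3 lowest for Slfn4 and for all 3 genes. Rffl, a ubiquitin ligase gene, fell by 0.54 (adjusted p = 0.00918), and Zfp830, a zinc finger gene, rose by 0.38 (adjusted p = 0.0312). The call of Zfp830 was lost without ALT 1, ALT 2 or ALT 3 and without any of the telomerase tumours (adjusted p from 0.0527 to 0.119). The 15 other neighbours had log2 changes from −0.9 (Ccl6, which passed without ALT 4, adjusted p = 0.0406) to 1.55 (Wfdc18, with an SE of 1.24).

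**Figure D4:**
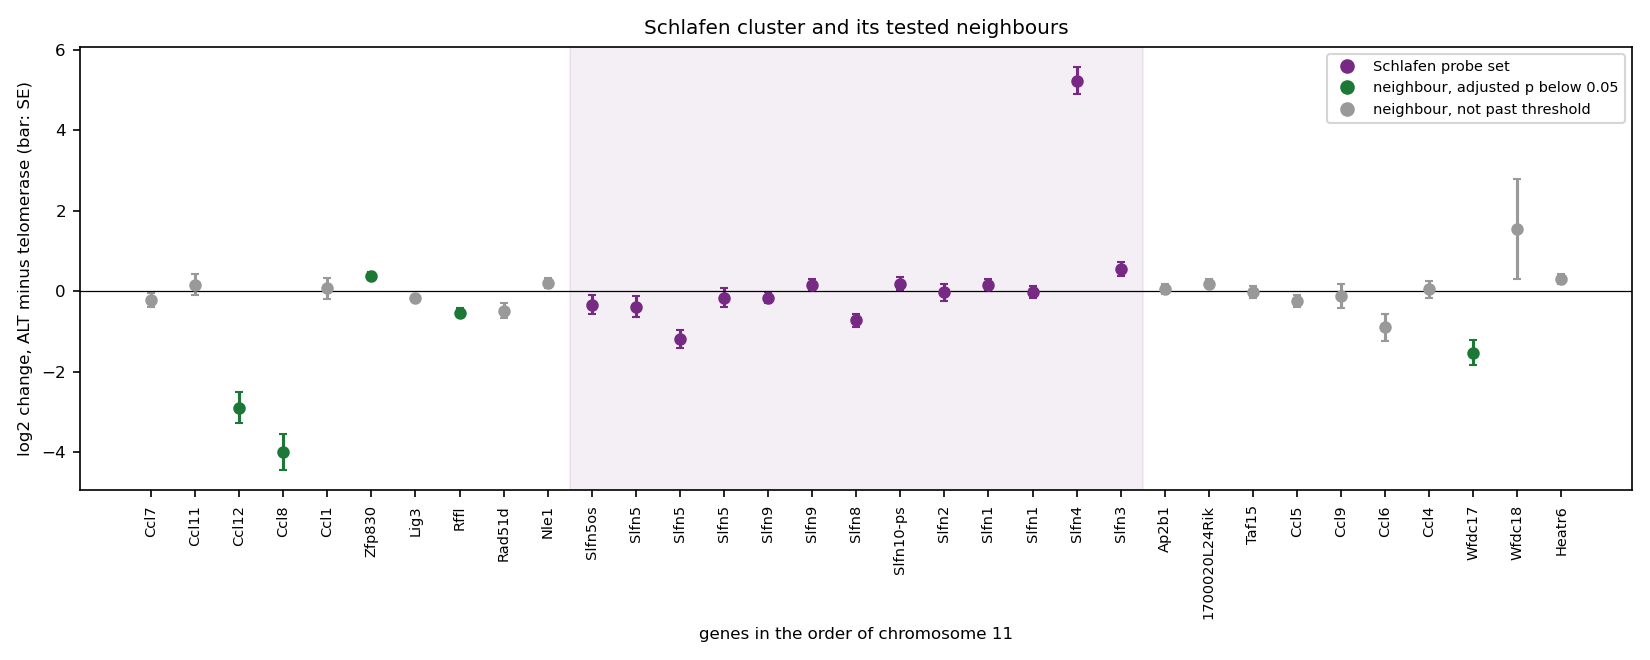
Log2 change, ALT minus telomerase (points, bars are SE), of the Schlafen probe sets (shaded) and of 10 tested genes on each side, in chromosome order. Slfn4 at 5.24 is the highest point, while Ccl8 at −4.0 and Ccl12 at −2.9 lie lowest.

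Type I interferon signals through its receptor to STAT proteins and Irf9, which switch on target genes, Schlafen genes among them; Irf7 amplifies the loop. Of 43 tested interferon-stimulated genes outside the family, 0 rose and 9 fell by limma, 20.9% of the list against 10.1% of all tested genes. At an unadjusted p under 0.05 in limma 14 were lower in ALT tumours and 0 higher. The share of all tested genes at that level was not taken, so nothing is read from the 14. The median log2 change of the list was −0.17, and that of all tested genes −0.006. Zbp1, a sensor of viral nucleic acid, fell by 1.09 (adjusted p = 0.00501), with 16.9 to 35.7 in ALT tumours and 59.7 to 97.3 in telomerase tumours. Usp18, which dampens interferon signalling, fell by 1.5 (adjusted p = 0.0141), with 31.8 to 92.5 in ALT tumours and 118 to 336 in telomerase tumours. Rtp4 fell by 1.53 (adjusted p = 0.0109) and Irf7 by 0.86 (adjusted p = 0.0154). The other 5 were Trim25, Adar, Cmpk2, Parp14 and Lgals3bp, named after their values were seen. Each of these 5 lost its call without at least 1 of the tumours. With an ALT mean of 21.1, Cmpk2 passed the filter of 25.3 through the other tumours (36.0 to 72.8 in telomerase tumours). It is counted among the 9 and in the 20.9%.

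Telomerase 2 had the highest signals of Zbp1, Usp18, Rtp4 and Irf7 among the 9 arrays. It also had the highest Slfn4 signal among telomerase tumours, 34.6, which without detection calls cannot be told from background. Without telomerase 2 the list held 3 genes that fell by limma, 6.98% of it against 6.83% of all tested genes, so the list then stood at the share of all genes. Without telomerase 1 it held 4, 9.3% against 5.33%. Of the 9 genes, 7 lost their call without telomerase 1, among them Usp18 (adjusted p = 0.0644) and Irf7 (0.059), and the others were Adar, Cmpk2, Lgals3bp, Parp14 and Trim25. Without telomerase 2 the calls of 6 were lost, those of Usp18 (0.0631), Irf7 (0.0651), Rtp4 (0.0508), Cmpk2, Lgals3bp and Parp14. With all probe sets of a gene averaged 5 genes of the list fell, 11.6% against 9.5% of all tested genes. Among arrays without acinar transcripts 6 fell, 14.0% against 3.67%.

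Of 19 tested genes of interferon receptors and signalling 1 rose (5.26%) and 2 fell (10.5%), close to the 7.48% and 10.1% of all tested genes. Ifngr1, a chain of the receptor for interferon gamma, rose by 1.14 (adjusted p = 0.0122, and 0.0532 without telomerase 1), with 1027 to 2672 in ALT tumours and 755 to 836 in telomerase tumours. Its partner chain Ifngr2 fell by 0.61 (adjusted p = 0.0419), a call lost without any 1 of 7 arrays, all but ALT 2 (0.0561 to 0.13). Irf9 had 76.0 to 132 in ALT tumours and 157 to 203 in telomerase tumours and fell by 0.7 (adjusted p = 0.017, 0.0759 without telomerase 2 and 0.0543 without telomerase 3). Stat2, the partner of Irf9, differed by 0.01 on the log2 scale (adjusted p = 0.978). For Ifnar1, a chain of the type I receptor, the difference was −0.42 (adjusted p = 0.0967).

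**Figure D5:**
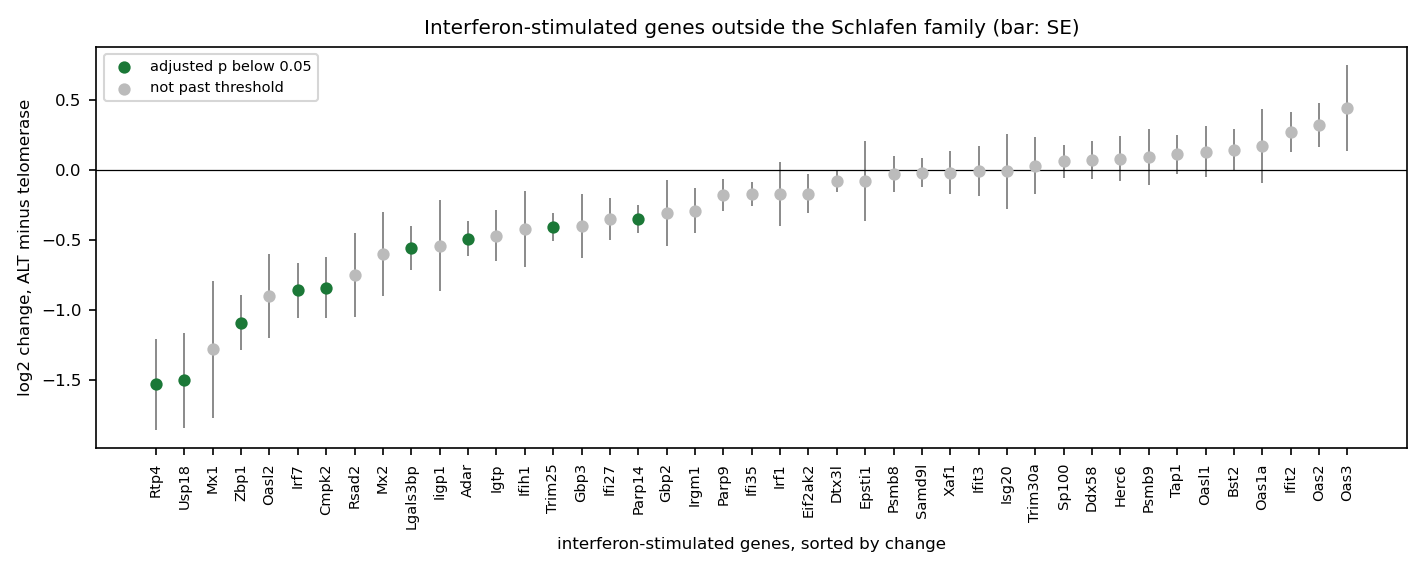
Log2 change, ALT minus telomerase (points, bars are SE), of the 43 tested interferon-stimulated genes outside the Schlafen family, sorted by change. The 9 that passed an adjusted p of 0.05 (green) are all lower in ALT tumours, with Rtp4 at −1.53 lowest.

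Slfn2 is tied to T-cell quiescence and to transfer RNA, so genes of both were counted. Of 18 tested quiescence genes 1 rose (5.56%) and 2 fell (11.1%), close to the 7.48% and 10.1% of all tested genes. Foxo1, a transcription factor of resting T cells, rose by 0.58 (adjusted p = 0.00386), with 747 to 900 in ALT tumours and 470 to 584 in telomerase tumours, but with all its probe sets averaged the change was 0.23 (adjusted p = 0.186). Runx1, a T-lineage transcription factor, fell by 0.77 (adjusted p = 0.00192), and Ccr7, the receptor that guides naive T cells to lymph nodes, fell by 1.41 (adjusted p = 0.00474). Ccr7 had 3.06 to 22.3 in ALT tumours, about or below the pseudocount of 16, and 40.4 to 67.5 in telomerase tumours. With an ALT mean of 11.4 it passed the filter of 25.3 through the other tumours. Its change ran from −2.41 to −0.67 over the alternatives. Of 8 tested genes of transfer RNA cleavage and repair 0 rose and 1 fell by limma (12.5%, against 10.1% of all), with 2 at an unadjusted p under 0.05. The 1 that fell was Nsun2, which methylates transfer RNA and protects it from cleavage, by 0.51 (adjusted p = 0.00162), with 1781 to 2077 in ALT tumours and 2507 to 2833 in telomerase tumours.

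The 10 tested genes outside the family whose log2 signal followed that of Slfn4 most closely over the 9 arrays had Pearson correlations from 0.983 to 0.993. They were 1700097N02Rik, C330018D20Rik, Dppa4, Noxred1, Itsn1, Gtsf1, Wfdc15a, Morc1, Mbd2 and Rhox5, on 7 chromosomes, with none on chromosome 11. The arrays share the split between ALT and telomerase tumours, which sets most of such a correlation, so it is a description. Dppa4, a gene of pluripotent cells, had 542, 646, 793, 1076 and 540 in ALT 1 to ALT 5 and 15.8, 23.5 and 19.2 in telomerase 1 to telomerase 3. Like Slfn4 it was highest in ALT 4 and lowest in ALT 5, but its ALT 1 and ALT 5 values (542 and 540) were almost equal. For Slfn4 those tumours had 1479 and 622. Itsn1 had 182 to 261 in ALT tumours and 56.7 to 72.2 in telomerase tumours, a log2 change of 1.54, which was −0.18 with all its probe sets averaged.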

How the data were processed

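The authors deposited MAS5 signal intensities, a linear scale, for 45101 probe sets on 9 arrays, per the submitters' processing notes; version and settings of MAS5 are not stated in the labels, and the table has no detection calls. Array medians lay between 39.8 and 43.8, and no 2 arrays held identical values. The number of arrays limits the precision. Of the probe sets 64 are controls, 34958 name 1 gene, 932 several and 9211 none.

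Signals were taken as deposited, and log2(signal + 16) was tested with limma 3.58.1 (R 4.3.3) on the 5 ALT and 3 telomerase tumours, with Benjamini-Hochberg adjustment at 0.05. All 45037 non-control probe sets were fitted for the family. For genes, the probe set of highest mean was kept and probe sets in the lowest 40% of means were left out, leaving 12368 genes. The pseudocount understates the change of low signals. Acinar transcripts were called present where their sum was over 10 times the lowest.

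Named were every family probe set, the 10 genes most correlated with Slfn4, the neighbours, up to 4 genes of lowest p per list, and Stat2, Irf9, Irf7 and Ifnar1. Named outside this rule, after their values were seen, were Csf1r, Col3a1, Thy1, AI662270, the markers below 16 in every array and 5 further interferon-stimulated genes. The members and lists were chosen with earlier results of these data known. Promoters were read from RefSeq (GRCm38.p6) and aligned with Biopython 1.88; tables and figures used Python 3.11.15, pandas 2.3.3 and matplotlib 3.10.9. The fits were tested on simulated data. Alternatives were other pseudocounts, filters, normalisations, probe-set rules, array subsets, a replicate block and leaving out each tumour.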

Additional observations from a re-analysis of the deposited data

Results flagged for a closer look

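In 2 of 35 probe sets examined, 1 ALT tumour stood apart from the other ALT tumours by Dixon's criterion, which chance meets in about 1 in 20 groups. Slfn5os, the non-coding transcript opposite Slfn5, had a signal of 17.22 in ALT 4 and 1.0 to 1.44 in the other ALT tumours, with a gap of 0.97 of the range. The chemokine gene Ccl5, beside the cluster, had 35.86 in ALT 5 and 25.1 to 28.2 in the other ALT tumours, with a gap of 0.71 of the range.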

How the results depend on the processing

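The log2 change of Slfn4 was 6.31 with a pseudocount of 1, 3.94 with 64, 3.9 when averaged with the set shared with Slfn3, and 4.98 to 5.58 when each tumour was left out. Of 2169 genes past the threshold, 329 passed among arrays with acinar transcripts and 833 among arrays without; leaving out each tumour gave 1163 (telomerase 1) to 2096, and adding the parental tumour to the telomerase group gave 3065. The 4 Schlafen probe sets past the threshold (2 higher, 2 lower) were 2 among arrays without acinar transcripts (2 higher, 0 lower). Slfn8 and the Slfn5 set thus lost their call there. With each tumour left out 3 to 5 passed. The share of all probe sets was not taken in these settings, so nothing is read from the counts. The 9 interferon-stimulated genes (20.9% of the list against 10.1% of all genes lower) were 5 with probe sets averaged (11.6% against 9.5%). They were 6 among arrays without acinar transcripts (14.0% against 3.67%) and 9 with no expression filter (19.6% against 6.06%). Leaving out each tumour gave 3 (telomerase 2, 6.98% against 6.83%) to 12 (ALT 5, 27.9% against 9.56%), with 4 without telomerase 1 (9.3% against 5.33%). The 5 neighbours (1 higher, 4 lower) were 2 of 10 with 5 genes on each side (1 higher, 1 lower). They were 10 of 40 with 20 on each side (5 higher, 5 lower), where 7.48% and 10.1% of all genes passed. Among arrays without acinar transcripts 3 of 20 passed, all lower, against 3.67% of all genes. With each tumour left out 4 to 6 passed, where 5.33% to 10.3% of all genes were lower. Itsn1 changed sign to −0.18 with probe sets averaged. The subsets hold fewer samples; the cause of the other shifts was not tested. Of 41 named genes past the threshold, 8 kept their call and direction in all of their 22 or 23 alternatives. They were Ccl8, 1700097N02Rik, C330018D20Rik, Dppa4, Gtsf1, Noxred1, Rhox5 and Wfdc15a. All but Ccl8 were named because they followed Slfn4 over these same arrays, so their steady calls carry no weight.

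Tumour numbers were not taken to pair the groups, since the labels do not say that they do. The deviations of same-numbered tumours from their group means correlated at −0.3232, −0.3933 and −0.6103. These values cannot decide pairing. Acinar transcripts were present in ALT 1, ALT 2 and telomerase 3 but not in ALT 3, telomerase 1 or telomerase 2, so they differ within each number. With a replicate block, 991 of 12368 genes and 2 interferon-stimulated genes (4.65% of the list against 5.0% of all lower) passed. So did 3 of 20 neighbours, all lower, and 3 Schlafen probe sets. The share of all probe sets was not taken for this setting. The Slfn4 change was 5.35. Without detection calls, signals near the pseudocount cannot be told from background.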

Other observations

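The parental tumour lay nearer the telomerase mean than the ALT mean in 10 of the 15 Slfn probe sets and nearer the ALT mean in 5. It was within the range of the telomerase tumours in 7, above it in 6 and below it in 2. In 3 probe sets (Slfn8, 1 of Slfn5 and 1 of Slfn9) it was above all 8 passaged tumours, and in 0 was it below them all. As 1 array it has no replicate, so no test was made.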
